A study of Mus musculus with 4 samples.

Results

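Antiviral interferon-stimulated effectors are genes that interferon switches on, and most of their products act against virus replication. Here they are 10 mouse genes chosen by name, Rsad2, Cmpk2, Rtp4, Ifit1, Ifit2, Ifit3, Isg15, Isg20, Zbp1 and Usp18, out of 23783 genes with a symbol in the deposited count table. Each gene was followed through its most abundant RefSeq transcript record, and the positions given for a gene are its RefSeq span over all annotated transcripts in GRCm38.p6, not the span of that record. The libraries were made from BV-2, an immortalised mouse cell line used as a model of microglia, the macrophages of the brain. The 2 control libraries came from cells labelled control, with 4 h in their titles. The 2 LPS libraries came from cells treated with lipopolysaccharide, a bacterial cell wall component, at 10 ng/ml for 4 h. All 4 libraries come from 1 cell line with no other genotype named. The labels do not say that replicates came from separate cultures, so the spread between samples behind each p-value may be technical only.

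As background, LPS is sensed by Toll-like receptor 4, which signals through the adaptor MyD88 to NF-kB and through the adaptor TRIF, encoded by Ticam1, to the kinases TBK1 and IKKε and the factor IRF3. IRF3 switches on the interferon beta gene, and secreted interferon acts back on its receptor to activate a complex of transcription factors that includes STAT2 and IRF9. That complex binds a DNA element called ISRE, the interferon-stimulated response element, in the promoters of effector genes. IRF3 can bind similar elements directly, and in microglia and other macrophages this programme is a known arm of the LPS response.

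Library totals ran from 2778686 to 3368693 counts, and the 5 most abundant records of the table took 53.4% to 67.5% of them. The control libraries differed from each other more than the LPS libraries did, with log2 correlations across records of 0.949 and 0.981. Effector genes together held 32 and 58 counts in the controls and 545 and 536 after LPS, so their control levels rest on few reads. Normalised counts below are counts scaled to a common library size of 3119862. Of the 10 macrophage markers, Csf1r, Cd68, Spi1, Tyrobp and Fcer1g were well counted in all libraries. The other 5, Aif1, Itgam, Cx3cr1, Ptprc and Trem2, were below the count filter, and 4 of the 10 have 2 or more records. Spi1, which encodes the macrophage transcription factor PU.1, rose from 509 ± 100 to 1125 ± 5.02 in normalised counts (edgeR log2 fold change 1.15, SE 0.19, adjusted p 0.00391), with adjusted p-values of 0.0517 and 0.0823 without LPS replicates 1 and 2, and the other 4 tested markers did not pass. Whether this bears on the effector genes was not tested. The summed level of the 10 macrophage markers was 2592 and 2179 normalised counts in the controls and 2829 and 2815 after LPS, with Itgam listed at 0. All 15 markers of astrocytes, oligodendrocytes and neurons were listed at 0 in all libraries, 8 of them genes with several records. Of 5 endothelial markers, Kdr alone passed the count filter, with 459 and 444 normalised counts in the controls and 362 and 384 after LPS.

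A property of the table bears on 2 of the effector genes. Among coding genes with 1 record, 40.7% passed the count filter, whereas among those with 2 or more records 6.28% did. Stat3 (3 records) and Jak2 (2 records), chosen after their values were seen, were listed at 0 in all libraries, and Gapdh (2 records) had 30 counts in all against 29565 for Actb (1 record). Isg20 has 4 records and Zbp1 has 2, so their low counts are not a measure of their expression. The sources used here do not say how reads shared by several records were counted. The other 8 effector genes have 1 record each.

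LPS raised 6 of the 10 effector genes (threshold 0.05 on the adjusted p of edgeR's quasi-likelihood test, 6981 records): Rsad2, Cmpk2, Rtp4, Ifit1, Isg15 and Usp18. Over all records tested, 3.82% were higher at that threshold and 1.7% lower, with a median log2 fold change of -0.01. Ifit2 was tested and did not pass, and Ifit3, Zbp1 and Isg20 had too few counts to be tested. Of the 7 tested, 0 fell in edgeR, DESeq2 or limma-voom, 0 had an unadjusted p below 0.05 in that direction, and all 7 estimates were positive. Both LPS libraries lay above both controls for all 7 tested genes, against 21.4% of all records tested. The untested Ifit3 and Zbp1 had the same order, Zbp1 on 0 counts in each control and 3 and 1 after LPS. A gene almost absent from the controls passes the filter on counts through its LPS libraries alone, so the tested genes lean upward by construction. In bulk RNA, fewer cells expressing a gene and less of its RNA per cell cannot be told apart.

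**Figure D1:**
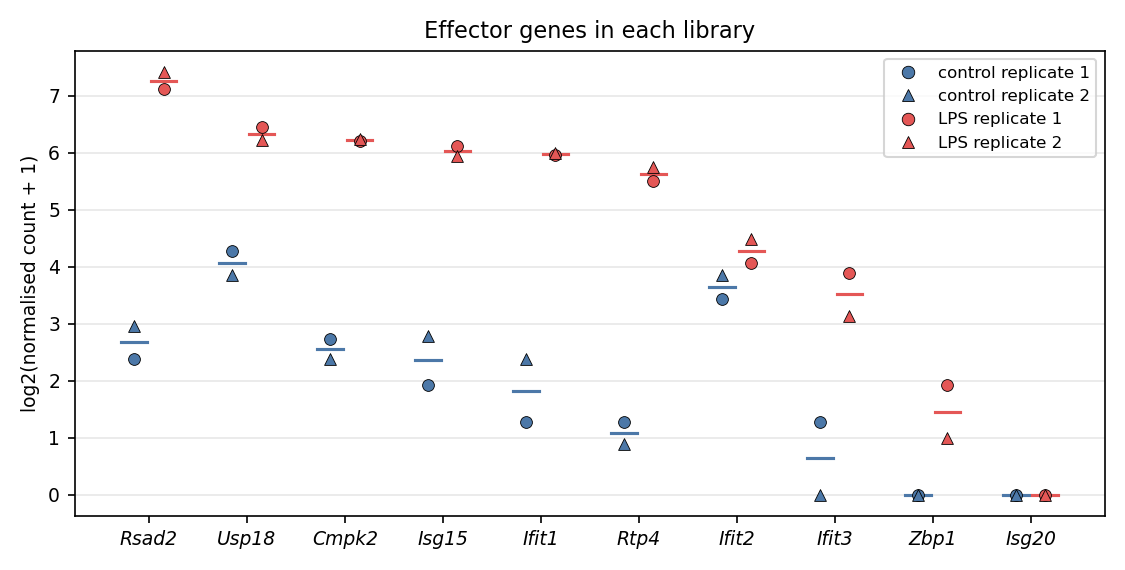
Normalised counts of the 10 effector genes in each library, as log2 of the count plus 1 (vertical axis), with circles for replicate 1, triangles for replicate 2 and a bar at the mean of each group. Control and LPS points are far apart for 6 genes, close for Ifit2, and all at 0 for Isg20.

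Rsad2 encodes viperin, a radical SAM enzyme that makes a chain-terminating nucleotide from CTP, and Cmpk2, its neighbour on chromosome 12, encodes a mitochondrial nucleoside monophosphate kinase. Rsad2 (NM_021384, chromosome 12, 26442743 to 26456452) had 4.22 and 6.75 normalised counts in the control libraries and 138 and 170 after LPS. Both LPS values lay far above both controls, and the gene rose from 5.49 ± 1.79 to 154 ± 22.9 in normalised counts (SD, n = 2; edgeR log2 fold change 4.71, SE 0.35, adjusted p 9.75e-06). Cmpk2 (NM_020557, chromosome 12, 26469117 to 26479837) had 5.63 and 4.22 normalised counts in the control libraries and 73 and 74.3 after LPS. Its LPS libraries were nearly equal, and it rose with a log2 fold change of 3.92 (SE 0.37, edgeR adjusted p 5.22e-05). The annotated spans of Rsad2 and Cmpk2 lie 12665 bases apart. Among all records tested, Rsad2 ranked at 22 and Cmpk2 at 33 by log2 fold change.

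The ratio of Rsad2 to Cmpk2 counts within a library does not depend on how libraries are scaled. It was 0.75 and 1.60 in the controls and 1.89 and 2.29 after LPS, so every LPS ratio was above every control ratio. With 2 libraries a group the exact two-sided permutation test cannot go below p = 0.333, and that is the p it gave.

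IFIT1 binds viral RNA that lacks the host's cap methylation and blocks its translation, and the Ifit genes sit in a cluster on chromosome 19. Ifit1 (NM_008331, chromosome 19, 34640889 to 34650009) had 1.41 and 4.22 normalised counts in the control libraries and 61 and 62.6 after LPS. The groups were widely separated (edgeR log2 fold change 4.25, SE 0.44, adjusted p 9.86e-05). The size of this change rested partly on the controls, which had 1 and 5 counts: with control replicate 2 left out, Ifit1 rose by 5.33 on the log2 scale. Ifit3 (NM_010501, chromosome 19, 34583119 to 34588982) had 1 and 0 counts in the controls and 15 and 8 after LPS. With 1 control count in all, its rate ratio was 20.7 with an exact 95% interval of 3.36 to 854, which covers counting error only. With no filter on low counts, edgeR called Ifit3 higher with an adjusted p of 0.00041, and leaving out single libraries gave adjusted p-values of 0.00152 to 0.0983 where it could be tested, the highest without control replicate 2.

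Ifit2, in the same cluster, was tested and did not pass. Ifit2 (NM_008332, chromosome 19, 34550550 to 34576534) had 9.85 and 13.5 normalised counts in the control libraries and 15.7 and 21.5 after LPS. Its groups did not overlap, but the gap was small beside their spread (log2 fold change 0.62, 95% interval -0.28 to 1.53, edgeR adjusted p 0.58). The upper end of this interval for Ifit2 lies below the lower end for Ifit1, which is 3.28. Ifit1 had 0.143 and 0.313 reads for each Ifit2 read in the controls, and 3.88 and 2.91 after LPS. The order of the pair thus turned over in both LPS libraries, with an exact two-sided permutation p of 0.333, the smallest that 2 against 2 allows. Ifit3b, a close copy of Ifit3 that may share reads with it, had 1 and 0 counts in the controls and 2 and 5 after LPS, and Ifit1bl2 had 0 and 0 and 3 and 1. The span of Ifit1bl1, listed at 0 with 2 records, overlaps that of Ifit1.

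Isg15 and Usp18 form a pair of opposite functions: ISG15 is a ubiquitin-like protein that is attached to other proteins, and USP18 is the protease that removes it and also damps signalling at the interferon receptor. Isg15 (NM_015783, chromosome 4, 156199424 to 156200818) had 2.81 and 5.91 normalised counts in the control libraries and 68.4 and 60.6 after LPS. It rose in both LPS libraries by a wide margin (edgeR log2 fold change 3.74, SE 0.40, adjusted p 0.00013), and by 4.45 on the log2 scale without control replicate 2. Usp18 (NM_011909, chromosome 6, 121245906 to 121270917) had 18.3 and 13.5 normalised counts in the control libraries and 86.9 and 73.3 after LPS. Usp18 had the smallest rise of the 6 that passed (edgeR log2 fold change 2.37, SE 0.31, adjusted p 0.000639). Isg15 counts were 0.154 and 0.438 of those of Usp18 in the controls and 0.787 and 0.827 after LPS, again without overlap and with an exact permutation p of 0.333.

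The enzymes that attach ISG15 did not pass with it. Uba7, the E1 enzyme, had 19.7 and 27 normalised counts in the control libraries and 18.5 and 17.6 after LPS (edgeR adjusted p 0.736). Ube2l6, the E2 enzyme, had 217 and 163 normalised counts in the control libraries and 259 and 236 after LPS (log2 fold change 0.39, edgeR adjusted p 0.44). Its upper 95% bound was a log2 fold change of 0.85. Herc6, the main mouse ligase for ISG15, and Trim25, also a ligase for it, had adjusted p-values of 0.725 and 0.535. Thus 0 of 4 passed in edgeR, DESeq2 or limma-voom, and 0 had an unadjusted edgeR p below 0.05. Over all records tested, 3.82% were higher and 1.7% lower in edgeR, so 0 of 4 is near those shares. Whether the changes of these enzymes differ from that of Isg15 was not tested.

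Rtp4 encodes a receptor transporter protein that is strongly induced by interferon and acts against some RNA viruses. Rtp4 (NM_023386, chromosome 16, 23520219 to 23614222) had 1.41 and 0.844 normalised counts in the control libraries and 44.4 and 52.8 after LPS. Over both controls it had 2 counts, and its ratio of rates was 45.9 with an exact 95% interval of 12.4 to 385 (edgeR adjusted p 7.81e-05). By fitted log2 fold change Rtp4 ranked at 18 of all records tested, the highest of the effector genes. Its annotated span overlaps that of Masp1, which was listed at 0.

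Zbp1 and Isg20 gave almost no reads. ZBP1 senses nucleic acids in the Z conformation and can start cell death through RIPK3, and ISG20 is an exonuclease that degrades viral RNA. Zbp1 (NM_021394, chromosome 2, 173206612 to 173218959) had 0 counts in both controls and 3 and 1 after LPS. Set against a floor of 3 counts over the control group, these LPS counts give a 1.2-fold ratio. This ratio leaves out the counting error of the LPS reads, so it is not a lower bound. Isg20 (chromosome 7, 78913396 to 78920396) was listed at 0 in all 4 records and libraries. By counting error alone, a count of 0 allows up to 3 counts in each library. For Zbp1 and Isg20, with several records, neither this limit nor the ratio bounds expression. Of the genes that act with ZBP1, Ripk1, Mlkl and Fadd were tested and 0 passed in edgeR, DESeq2 or limma-voom (0 at an unadjusted edgeR p below 0.05). With 3.82% of all records tested higher and 1.7% lower in edgeR, 0 of 3 is near those shares. Casp8 was below the filter, and Ripk3, with 3 records, was listed at 0.

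**Figure D2:**
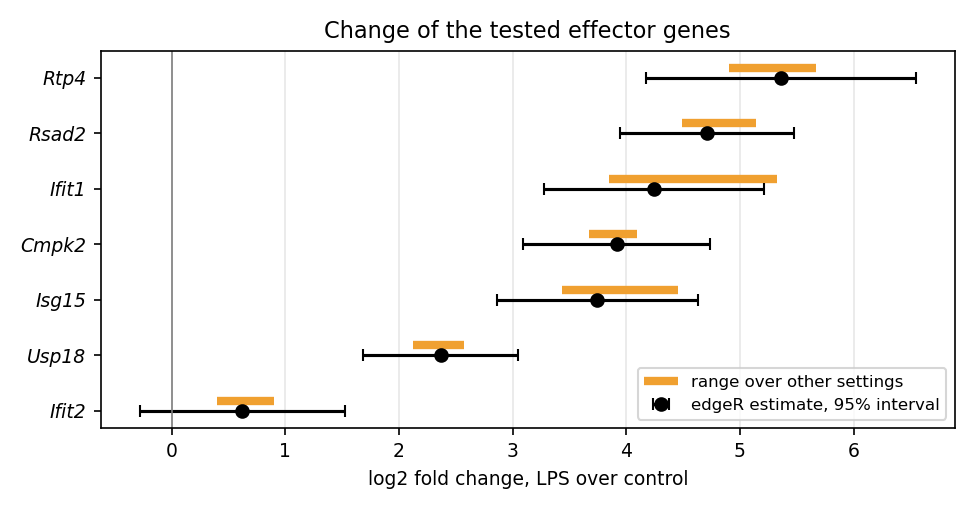
Log2 fold change of the 7 tested effector genes (horizontal axis): points and thin bars are the edgeR estimate with its 95% interval, and orange bars are the range over the other processing settings. Intervals of 6 genes lie above 0, and that of Ifit2, from -0.28 to 1.53, spans it.

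Promoter sequences show which of these genes carry ISRE letters near their start. RefSeq promoter windows of GRCm38.p6, 250 bases before to 50 after an annotated start, were matched for 7 of the 10 genes by symbol, and Rtp4, Zbp1 and Usp18 had no entry. The start of a window is that of 1 annotated transcript and can lie inside the RefSeq span of the gene: by 410 bases in Ifit3, 98 in Cmpk2, and 144 and 538 in the windows of Ifit2. For Ifit3 it lies 2 bases from the start of the GENCODE transcript matched to the counted record, and for Rsad2 and Isg15 at that start. For Ifit1 and Cmpk2 the distance is 18 and 11 bases. The ISRE core was searched as GAAA, any 2 bases and GAAA again, which on the opposite strand reads TTTC, any 2 bases and TTTC, and overlapping matches were counted. It was found in 3.44% of 32851 windows of this length in the genome, and in windows of 4 of the 7 genes: Rsad2, Ifit1, Ifit3 and Isg15. The stretches holding the matches are shown 5′ to 3′ on the strand of the gene, with the core in capitals, to let the number and spacing of cores be compared between genes.
Isg15 (chr4:156200855-156200916, minus strand): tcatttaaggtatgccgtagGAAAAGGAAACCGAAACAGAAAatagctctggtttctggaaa
Ifit1 (chr19:34640765-34640833, plus strand): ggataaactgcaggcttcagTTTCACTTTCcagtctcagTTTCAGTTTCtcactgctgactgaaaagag
Ifit3 (chr19:34583353-34583436, plus strand): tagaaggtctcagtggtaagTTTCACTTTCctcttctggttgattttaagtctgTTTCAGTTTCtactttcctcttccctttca
Rsad2 (chr12:26456543-26456592, minus strand): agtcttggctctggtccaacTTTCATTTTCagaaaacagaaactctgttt
Isg15 has 3 overlapping cores, from 78 to 57 bases before its window's start. Ifit1 and Ifit3 have 2 cores each and share the letters of both, TTTCACTTTC followed by TTTCAGTTTC, and Rsad2 has 1, TTTCATTTTC, 120 to 111 bases before its window's start.

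No core match was found in the window of Cmpk2, in the 2 windows of Ifit2 or in the 3 of Isg20. Cmpk2 rose and Ifit2 did not pass, so a match in this window did not go with the call in every gene. A kappaB motif, searched as GGGA, any 2 bases and TTCC on both strands, occurs in 1.47% of all windows. It was found in 1 window of Ifit2, as GGGAGCTTCC 247 bases before the start, and in 1 of Isg20, as GGGACCTTCC 109 bases before it. Matches and their absence describe these letters in these windows and not binding.

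**Figure D3:**
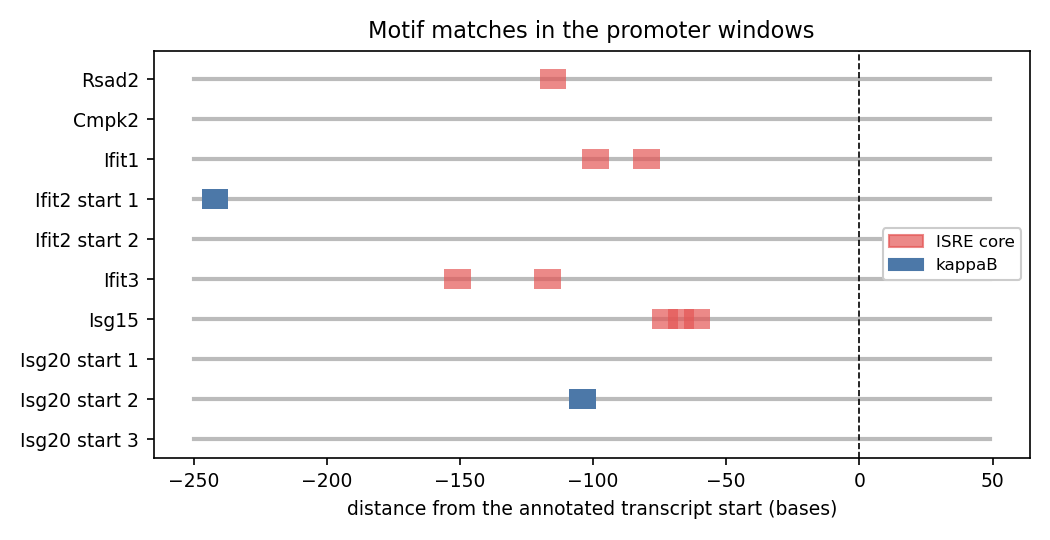
Positions of ISRE core (red) and kappaB (blue) matches in the promoter windows of 7 effector genes, in bases from the transcript start of the window (dashed line at 0), with 1 row per window. ISRE cores lie between 156 and 57 bases before the start of the window's transcript in Rsad2, Ifit1, Ifit3 and Isg15.

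Levels of different genes were compared as normalised counts per kb of transcript. After LPS, Isg15 stood highest of the effector genes at 85.3 ± 7.28 per kb (SD, n = 2). Usp18 at 45.2 ± 5.41 and Rsad2 at 40.7 ± 6.06 followed, and their libraries overlapped, so these neighbours in the order did not differ beyond their spread. Rtp4 came next at 30.9 ± 3.79, and then Ifit1 at 23.3 ± 0.418 and Cmpk2 at 23 ± 0.284, which also overlapped. Ifit3 at 6.22 ± 2.45 and Ifit2 at 4.88 ± 1.07 per kb overlapped at the low end. Zbp1 and Isg20, with several records, were left out of this order. In the controls the per kb order was different. Usp18 led at 8.97 ± 1.91 per kb, Isg15 followed at 5.77 ± 2.89 with overlapping libraries, and Ifit2 came next at 3.06 ± 0.677.

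After LPS, all tested NF-kB response genes except Il6 had higher mean levels per kb than the effector genes with 1 record. Of 10 NF-kB response genes, listed with earlier results of these data known, 8 were tested. All 8 rose: Nfkbia, Tnfaip2, Il1b, Il6, Ptgs2, Cxcl2, Ccl4 and Nlrp3. Their LPS levels ran from 84.3 per kb for the cytokine gene Il6 to 3404 for the chemokine gene Ccl4. The 2 left out, Nfkbiz and Tnfaip3, have several records. The libraries of Isg15 and Il6 overlapped in per kb level after LPS. The 7 other effector genes with 1 record were below all 8. Nlrp3, second lowest of the 8, had 137 ± 9.96 per kb, above Isg15 in both LPS libraries.

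**Figure D4:**
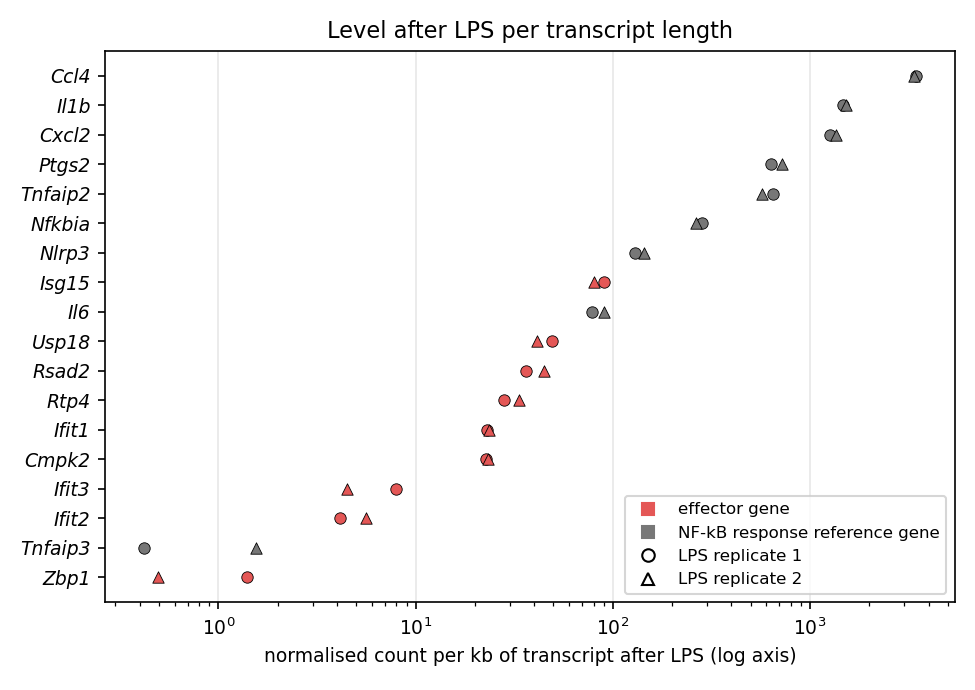
Normalised count per kb of transcript in each LPS library (log axis) for 9 effector genes (red) and the 9 NF-kB response reference genes with counts in both LPS libraries (grey), with circles for replicate 1 and triangles for replicate 2. Isg15, at 90.5 and 80.2, lies beside Il6, and the other effector genes lie below both. Zbp1 is drawn from 3 and 1 counts and has 2 records, so its point is not a measure of its level.

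Of the tested effector genes, Rsad2 had the highest mean normalised count, not scaled for length. Its pattern over the 4 libraries was most alike to that of Clec4e, which encodes the C-type lectin Mincle, followed by Phlda1 and Dcbld2. Likeness was the root mean square distance of log2(normalised count + 1), centred on each gene's mean, and was 0.209, 0.223 and 0.250 for these genes. The closest effector genes were Ifit1 at 0.312 and Rtp4 at 0.339, with 4 and 6 other records lying closer to Rsad2. Cmpk2 was at 0.576. Over 4 libraries in 2 groups, this measure mostly reads the size of the rise.

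Rsad2 and Cmpk2 lie near each other and both passed. The other genes with a record within 100 kb of this pair, Rnf144a and Mir6538, were listed at 0 and not tested. Within 100 kb of the 10 genes lay 32 other genes with a record, of which 9 were tested. All 9 lie near Isg15, Isg20, Zbp1 or Usp18, and no such gene near Rtp4 or the Ifit genes was tested. Of the 9 tested, 0 passed in either direction in edgeR, DESeq2 or limma-voom. Over all records tested, 3.82% were higher and 1.7% lower in edgeR, so 0 of 9 is near those shares. Among these 9, 1 gene, Agrn, had an unadjusted edgeR p below 0.05. Its span lies 1891 bases from that of Isg15, and it had 6 counts over both controls and 24 after LPS (edgeR adjusted p 0.251). Noc2l, also near Isg15, had means of 485 normalised counts in the controls and 498 after LPS (edgeR log2 fold change 0.04). Slc6a12, near Usp18, had 558 and 615 (0.14). Of the 32 genes, 13 had no count in any library.

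Upstream of the effectors, the interferon genes themselves were close to undetected. Ifnb1, the interferon beta gene, had 0 counts in both controls and 2 and 1 after LPS, which is at the floor of 3 counts. Of 5 other type I and II interferon genes, Ifna1, Ifna2, Ifna4 and Ifng were listed at 0 and Ifna5 had 1 count, in an LPS library. Ifnl2 and Ifnl3 were also listed at 0. Each of these interferon genes has 1 record. Of the receptor genes, Ifngr2 rose from 282 ± 48.9 to 490 ± 29.6 in normalised counts (edgeR log2 fold change 0.81, SE 0.19, adjusted p 0.0336), but without LPS replicate 1 or 2 its adjusted p was 0.564 or 0.374, and it was 0.0544 when libraries were scaled by their totals without the 5 most abundant records. Ifnar1, a chain of the type I receptor, had 172 and 206 normalised counts in the control libraries and 292 and 244 after LPS (edgeR adjusted p 0.26).

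On the path from Toll-like receptor 4 to interferon, 3 of 7 tested genes rose and 0 fell in edgeR, DESeq2 or limma-voom. At an unadjusted edgeR p below 0.05 there were 4 higher and 1 lower, the latter being Tlr4. Tlr4 had 49.2 and 138 normalised counts in the control libraries and 47.2 and 53.8 after LPS (edgeR adjusted p 0.269). Its groups overlapped, and its lower mean after LPS rested on control replicate 2. Ikbke, which encodes IKKε, rose from 150 ± 8.95 to 802 ± 64.1 in normalised counts (edgeR log2 fold change 2.42, SE 0.19, adjusted p 1.47e-05). Ticam1, which encodes TRIF, rose from 19.7 ± 3.98 to 63.2 ± 0.851 in normalised counts, and Cd14, the LPS co-receptor, from 537 ± 93.7 to 2571 ± 23.5 in normalised counts. Tbk1 and Ticam2 had edgeR adjusted p-values of 0.562 and 0.596. Irf3 and Irf7 have several records, and Irf7 was listed at 0.

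Past the interferon receptor, 1 of 6 tested genes rose and 0 fell in edgeR, DESeq2 or limma-voom, and at an unadjusted edgeR p below 0.05 there were 2 higher and 1 lower. It was Socs3, a feedback inhibitor that also answers to other cytokines (edgeR log2 fold change 4.17, SE 0.33, adjusted p 1.45e-05). Stat2, a subunit of the complex that binds ISRE, had 14.1 and 12.7 normalised counts in the control libraries and 28.7 and 26.4 after LPS (edgeR adjusted p 0.154). Irf2, which encodes a factor that can repress interferon-stimulated genes and was the lower one, had 61.9 and 54 normalised counts in the control libraries and 35.1 and 25.4 after LPS (edgeR adjusted p 0.116). Irf9, which encodes a partner of STAT2 in that complex, and Irf1 each have 3 records and at most 4 counts over a group, so they were not measured here.

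Other interferon-stimulated genes rose in 12 of 26 tested cases, out of 45 with a record, and 0 fell in edgeR, DESeq2 or limma-voom. At an unadjusted edgeR p below 0.05, 18 were higher and 0 lower. The median log2 fold change of the 26 was 1.29, and for the 7 tested effector genes it was 3.92, both given only as descriptions because the count filter favours genes that are high after LPS. Risen genes were the chemokine gene Cxcl10, the GTPase genes Gbp2, Irgm1 and Irgm2, the PARP family pair Parp9 and Parp14 with Dtx3l, the RNA-sensing OAS family genes Oas2, Oas3, Oasl1 and Oasl2, and Tor3a. Of these, Irgm2 and Tor3a lost the call without either LPS library (edgeR adjusted p 0.357 and 0.0814 for Irgm2, 0.0769 and 0.0697 for Tor3a, without LPS replicates 1 and 2), and Dtx3l without LPS replicate 1 (0.0572). Irgm2 was not called by DESeq2 either, with an adjusted p of 0.259, nor with totals without the 5 most abundant records (0.0508). Gbp2, with 0 control counts, was not tested without LPS replicate 1. Parp14 rose from 26.6 ± 7.76 to 234 ± 36.9 in normalised counts (edgeR log2 fold change 3.09, SE 0.27, adjusted p 2.83e-05), and Oasl1 from 40.4 ± 10.5 to 202 ± 24.8 in normalised counts. Cxcl10, with 3 reads in the controls, had a ratio of rates of 224 (exact 95% interval 76.5 to 1090). Ifitm3 and Bst2, which encode membrane proteins that block virus entry and release, were abundant without passing: Ifitm3 had a log2 fold change of 0.13 and Bst2 of 0.32 (edgeR adjusted p 0.907 and 0.566). Mx1, Mx2, Oas1b, Ifi44 and Ifi44l, with 1 record each, were listed at 0 in all libraries.

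**Figure D5:**
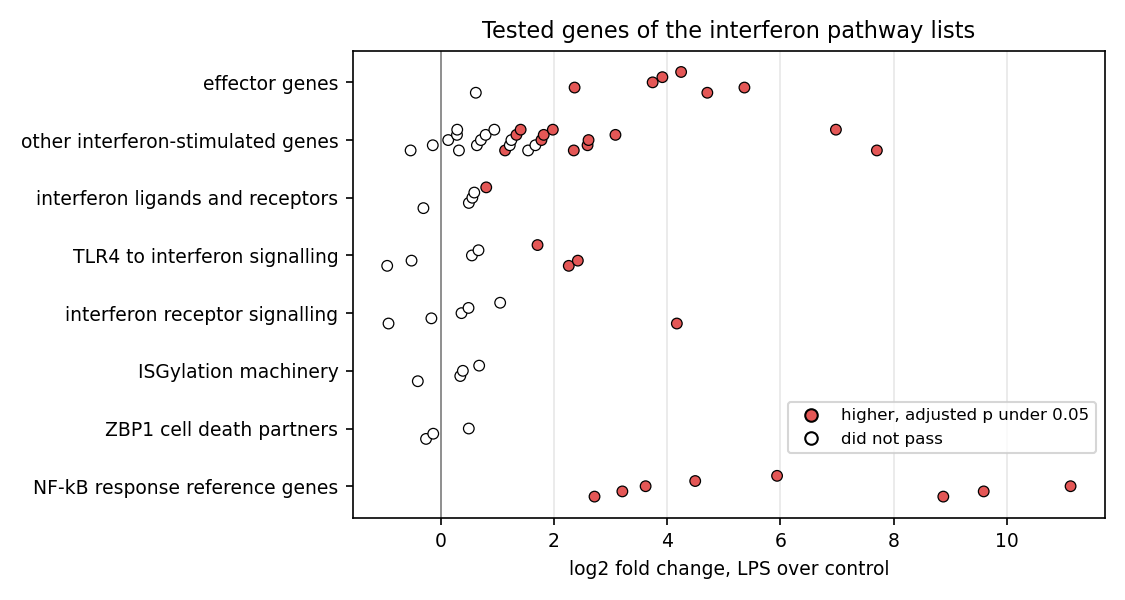
Log2 fold change (horizontal axis) of each tested gene in the effector list, 6 interferon pathway lists and the NF-kB reference list, with red points for genes that passed as higher and open points for the rest. The 6 effector genes that passed lie between 2.37 and the value of Rtp4, below the top NF-kB response genes, and Ifit2 lies at 0.62; fitted values of genes with 0 control counts, Gbp2 and Il6, are not bounds.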

How the data were processed

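Gene expression was measured by RNA-seq of BV-2 cells in 2 control and 2 LPS libraries. Directional libraries depleted of ribosomal RNA were sequenced as paired ends, per the labels' protocols. The authors deposited a table of read counts, whole numbers for each of 32915 RefSeq transcript records. The file is named as normalised, but its column sums differ and DESeq2 size factors run from 0.733 to 1.21, and the values were analysed as unnormalised. Per the submitters' processing notes, the tools include HTSeq 0.6.1, Cufflinks 2.2.1, TopHat2 2.0.10, Trimmomatic 0.33 and CASAVA 1.8.2, with the build mm10. The annotation release, strand setting and counting of shared reads are not stated there or elsewhere in the sources used. Symbols and 1-based positions came from RefSeq GRCm38.p6 (32487 records matched, 428 not), transcript lengths and GC content from GENCODE M21.

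Records were filtered by filterByExpr (minimum count 10), scaled by TMM and compared between groups with the quasi-likelihood test of edgeR 4.0.16 (R 4.3.3) with Benjamini-Hochberg adjustment over all 6981 records. Alternatives used DESeq2 1.42.0, limma 3.58.1, other scalings and filters, a GC and length trend, a replicate block and single libraries left out. The edgeR, DESeq2 and limma-voom fits to single records were tried on simulated counts with known changes. Those counts carried a common dispersion and no GC trend. Intervals on counts are exact and cover counting error only, since the libraries carry no molecular identifiers. The effector genes are named in full; genes of other lists were counted, and those that passed were named, with others where a level was needed, and the 3 records most like the tested effector gene with the highest mean normalised count were named. Members and lists were chosen with earlier results of these data known.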

Additional observations from a re-analysis of the deposited data

How the results depend on the processing

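Rsad2, Cmpk2, Rtp4, Ifit1, Isg15 and Usp18 stayed higher and past the threshold in each alternative that tested them, and Ifit2 stayed positive and short of it in all 12 that tested it (log2 fold change 0.40 to 0.90). Effector genes higher after LPS numbered 6 to 7 with single libraries left out and 7, with Ifit3 added, without a filter. When records needed a mean of 50 normalised counts or more, only Rsad2 among the effector genes was still tested, giving 1 effector gene and 7 other interferon-stimulated genes, against 164 records higher and 54 lower. Other interferon-stimulated genes numbered 9 to 17 with single libraries left out. Over all records, leaving out single libraries gave 165 to 723 higher and 39 to 581 lower, with the high values when a control library was left out and the spread came from the LPS pair alone. No filter gave 209 lower and the DESeq2 Wald test 66 lower. Removing a trend on GC content and length gave 443 higher and 342 lower. The difference between the control libraries on the log2 scale followed GC content (Spearman's rho 0.661 across 6956 records, which are not independent replicates). The replicate block gave 401 higher and 288 lower; same-numbered libraries deviated together with a correlation of 0.242 across records, but with 2 pairs they share only a number, and the block left the effector count at 6. The causes of these changes were not tested beyond what each setting leaves out. Control counts of 0 to 16 per effector gene and library limit the precision of the fold changes.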
